A study of Homo sapiens with 7 samples.

Results

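The enzymes described here are those of de novo serine synthesis and of the folate-bound one-carbon cycle that serine feeds: PHGDH, PSAT1, PSPH, SHMT1, SHMT2, MTHFD1, MTHFD1L, MTHFD2, MTHFD2L and ALDH1L2, 10 of the 32425 gene symbols listed in the data. The set was chosen by symbol, and because the level of PHGDH differed so much between the pairs of libraries. PHGDH is therefore given below as a description with no test, and every count is over the other 9 enzymes, of which 8 passed the filter for testing. All 10 were listed under a single Ensembl identifier each.

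The series holds 7 RNA sequencing libraries from 769-P, a human kidney cancer line (clear cell renal carcinoma). PA, with 3 libraries, is a name that the labels do not expand, and Lat-M, with 4, stands for latent metastatic cells. The Lat-M libraries carry a further number, which the labels do not explain, and fall by it into the pairs Lat-M1 and Lat-M2, of 2 libraries each. All were grown in an RPMI medium with glutamine, antibiotics and 10% fetal bovine serum, and no treatment is named. The labels say neither how the Lat-M cells were derived nor whether libraries of 1 name came from separate cultures. The p-values below therefore measure only how far these libraries differ from one another, which may be technical.

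Serine is made from the glycolytic intermediate 3-phosphoglycerate in a chain of PHGDH, PSAT1 and PSPH. Serine hydroxymethyltransferases then split serine into glycine and a one-carbon unit carried on tetrahydrofolate, SHMT1 in the cytosol and SHMT2 in mitochondria. MTHFD enzymes interconvert the folate-bound units, which serve the synthesis of purines and thymidylate, and mitochondria release them to the cytosol as formate. PHGDH catalyses the committing step of the chain, and cells that lack it depend on serine from the medium.

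Levels are given in TPM, a share of all transcripts in a library that is adjusted for transcript length, so that levels may also be set side by side between genes. Depth is unknown, since TPM keeps no read numbers. Differences are log2 fold changes on the log2(TPM + 1) scale, which understates the change of low genes, with their standard errors. Adjusted p-values are limma's, with Benjamini-Hochberg adjustment over the 16724 genes that averaged 1 TPM or more. In TPM as deposited, the median of all these genes was 0.16 higher in Lat-M1 than in PA and 0.14 higher in Lat-M2 than in PA. Differences of the 10 enzymes are therefore also given after every library was scaled by its median ratio to the others, called the scaled value. For other genes the scaled value is given where it changes the call or the sign or moves the value by over 1.5 times.

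Promoter sequences are shown for the enzyme that differed most (PHGDH), for the next enzyme of the chain, which was abundant in every library (PSAT1), and for the mitochondrial enzyme with the largest tested rise (MTHFD1L). Each is the 250 bases before the transcription start in RefSeq on GRCh38.p14, plus strand, with every CCAAT box in capitals. They lie at chr1:119711684-119711933, chr9:78296875-78297124 and chr6:150866083-150866332. The last sequence holds 30 bases of MTHFD1L at chr6:150866346-150866375, on the same strand, with an ATF4 composite element in capitals. These bases lie outside the MTHFD1L window shown, after its start, and within overlapping windows that precede other starts of the gene.
PHGDH: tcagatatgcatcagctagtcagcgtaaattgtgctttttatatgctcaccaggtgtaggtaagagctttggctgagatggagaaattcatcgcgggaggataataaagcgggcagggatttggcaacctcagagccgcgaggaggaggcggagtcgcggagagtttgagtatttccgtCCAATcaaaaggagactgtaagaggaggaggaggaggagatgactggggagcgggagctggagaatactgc
PSAT1: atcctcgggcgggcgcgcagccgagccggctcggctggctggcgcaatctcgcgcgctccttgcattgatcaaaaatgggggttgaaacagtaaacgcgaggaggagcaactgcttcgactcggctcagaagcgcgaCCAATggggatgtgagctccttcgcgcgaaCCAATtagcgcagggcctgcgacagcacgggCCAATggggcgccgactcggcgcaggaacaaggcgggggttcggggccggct
MTHFD1L: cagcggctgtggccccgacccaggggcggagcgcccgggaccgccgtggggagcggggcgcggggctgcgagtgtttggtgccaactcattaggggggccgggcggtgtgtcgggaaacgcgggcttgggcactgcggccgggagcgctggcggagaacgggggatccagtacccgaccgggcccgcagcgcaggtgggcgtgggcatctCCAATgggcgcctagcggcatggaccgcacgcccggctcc
MTHFD1L, ATF4 composite element: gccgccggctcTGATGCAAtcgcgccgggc

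Of the 10 enzymes, 7 had promoter entries, with 11 windows in all, and 35116 windows of the same length served as background. The CCAAT box, searched as CCAAT on both strands, was in 8 of the 11 windows and in 32% of all windows, but 3 of those 8 are overlapping MTHFD1L windows that hold the same box. PHGDH had 1 such box at 71 bases before the start, PSAT1 had 3 at 113, 83 and 52 bases, and the MTHFD1L window shown had 1 at 40 bases. Boxes were also found for SHMT1, MTHFD1 and MTHFD2, and none for MTHFD2L. The E-box CACGTG was in 6.34% of all windows, and was found in the window of MTHFD1 and, as the same site, in 2 overlapping windows of MTHFD1L. TGATGNAA, the composite element bound by ATF4 with a C/EBP partner and searched on both strands, was in 3.14% of all windows and, among these enzymes, at 1 site shared by the same 2 windows of MTHFD1L. In neither MTHFD1L window did the 3 motifs overlap. The windows also differed in composition: PHGDH held 11 CpG sites, equal to the median of all windows, PSAT1 held 30, and the MTHFD1L window shown held 31. GC content was 51.2% for PHGDH, 65.6% for PSAT1 and 75.6% for MTHFD1L, against a median of 58%. These letter matches describe the windows, and binding was not measured.

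PHGDH, 3-phosphoglycerate dehydrogenase, was near 0 in 5 libraries and abundant in the other 2. PHGDH read 0.0366, 0.155 and 0.0791 TPM in the PA libraries, 31.0 and 30.7 TPM in Lat-M1, and in Lat-M2 was listed at 0 in 1 library and at 0.0181 TPM in the other. Both Lat-M1 libraries thus stood far above all others, while PA and Lat-M2 differed by a fraction of 1 TPM. In log2(TPM + 1), PHGDH was 4.87 higher in Lat-M1 than in PA (scaled 4.78), 0.11 lower in Lat-M2 than in PA (a difference of -0.11, scaled -0.12) and lower by 4.98 in Lat-M2 than in Lat-M1 (a difference of -4.98). Its level in the 2 Lat-M1 libraries was above that of 70.7% and 69.8% of the genes at 1 TPM or more. Of the 10 enzymes, SHMT1, MTHFD2L and ALDH1L2 were lower than PHGDH in both Lat-M1 libraries, and the others were higher. These values chose the set, and nothing is tested on them.

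**Figure D1:**
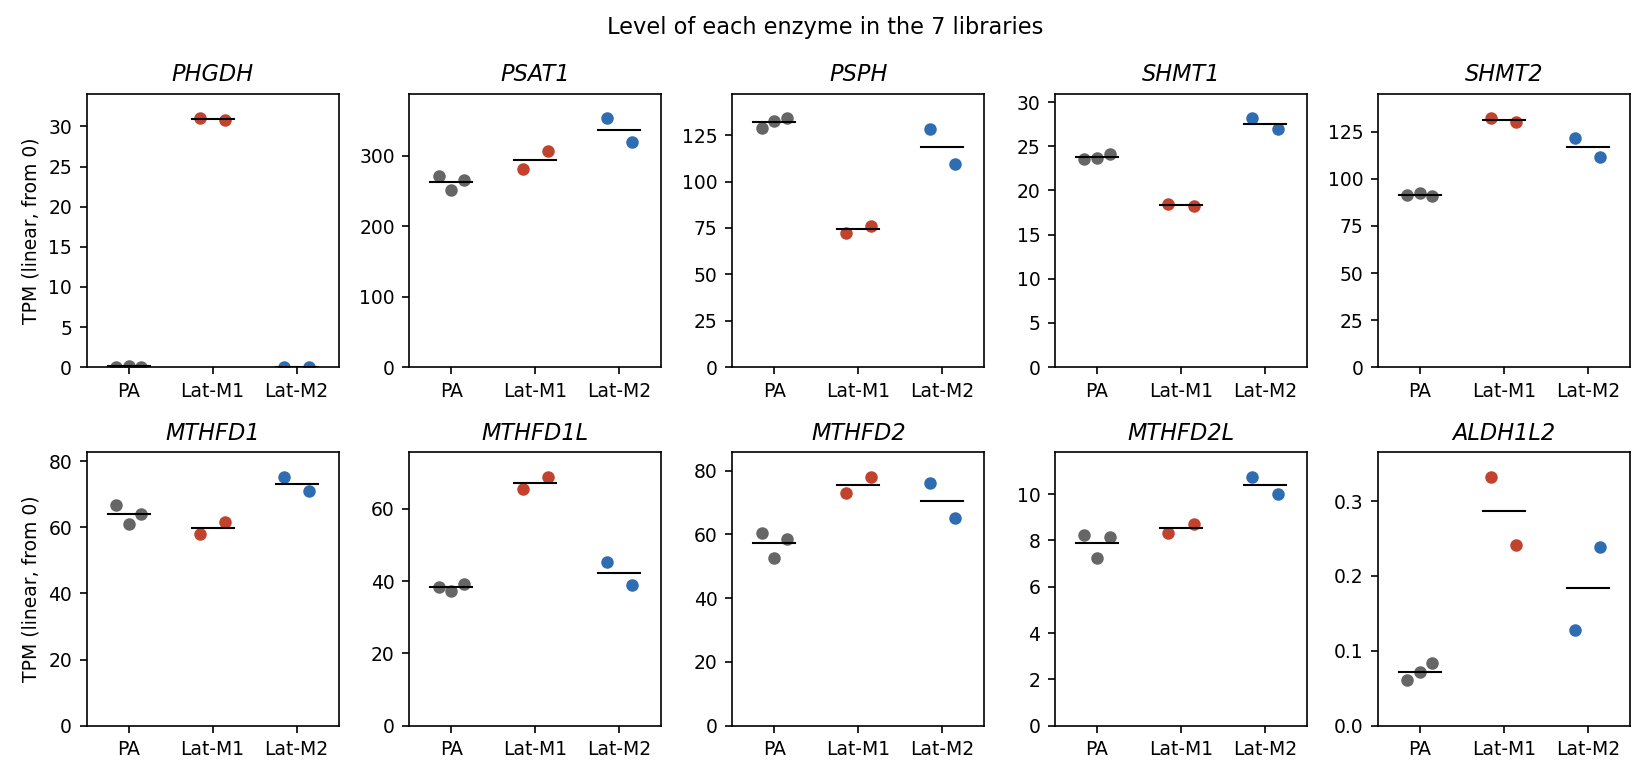
Level of the 10 enzymes in TPM (vertical axes, linear and starting at 0, each enzyme on its own scale) in the 3 PA, 2 Lat-M1 and 2 Lat-M2 libraries. Points are libraries and lines are group means. PHGDH is near 31 TPM in Lat-M1 and near 0 elsewhere, PSPH and SHMT1 are lowest in Lat-M1, and MTHFD1L is highest there.

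PSAT1, the phosphoserine aminotransferase that uses the product of PHGDH, was the most abundant of the 10 enzymes in every library, whether or not PHGDH was present. It read 272, 251 and 265 TPM in PA, 281 and 307 TPM in Lat-M1, and 353 and 320 TPM in Lat-M2. In each library it was above at least 97.4% of the genes at 1 TPM or more. The PA libraries were the lowest and the Lat-M2 libraries the highest, with no overlap between groups. Groups this small did not overlap for 68.0% of all tested genes in Lat-M1 and PA, 49.8% in Lat-M2 and PA, and 68.3% in the Lat-M pairs. PSAT1 rose in Lat-M2 against PA by 0.35 ± 0.070 (limma, adjusted p = 0.0207; scaled 0.20, adjusted p = 0.0291). That call ended in the fits without PA 2, PA 3 or Lat-M2-1 (adjusted p = 0.0621, 0.0563 and 0.0990). Against PA, Lat-M1 differed by 0.16 ± 0.070 as deposited (adjusted p = 0.105) and by -0.018 when scaled (adjusted p = 0.771), so its sign depended on the scaling. Lat-M2 against Lat-M1 gave 0.19 ± 0.077 (adjusted p = 0.0902), which passed the threshold when scaled (0.22, adjusted p = 0.0108).

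PSPH, the phosphatase that releases serine in the last step, was lowest in the libraries where PHGDH was high. It read 129, 133 and 134 TPM in PA, 72.3 and 76.1 TPM in Lat-M1, and 128 and 109 TPM in Lat-M2. Both Lat-M1 libraries lay below all others, and the higher Lat-M2 library lay just under the lowest PA library. PSPH fell by 0.82 ± 0.075 in Lat-M1 against PA (limma, a change of -0.82, adjusted p = 0.000156; scaled -0.997, adjusted p = 9.24e-06). Lat-M2 exceeded Lat-M1 by 0.67 ± 0.083 (adjusted p = 0.00088; scaled 0.69, adjusted p = 7.51e-05). Between Lat-M2 and PA the difference was -0.15 ± 0.075 (adjusted p = 0.204), and it passed the threshold only when scaled by the median ratio (-0.31, adjusted p = 0.00666) or with structural RNAs left out (-0.26, adjusted p = 0.0169). Pseudogene copies could share reads with these genes, and the listed copies of PSPH, PSAT1, SHMT1, MTHFD1 and MTHFD2 read at most 1.18 TPM, for PSPHP1 in 1 PA library. The PSAT1/PSPH ratio within a library, which does not depend on scaling, averaged 1.99 ± 0.107 (SD, n = 3) in PA, 3.96 ± 0.102 (n = 2) in Lat-M1 and 2.84 ± 0.122 (n = 2) in Lat-M2.

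The 2 serine hydroxymethyltransferases moved in opposite directions in Lat-M1: the cytosolic SHMT1 fell and the mitochondrial SHMT2 rose. SHMT1 read 23.5, 23.7 and 24.2 TPM in PA, 18.5 and 18.3 TPM in Lat-M1, and 28.2 and 27.0 TPM in Lat-M2. The groups did not overlap, with Lat-M1 lowest and Lat-M2 highest. SHMT1 fell by 0.36 ± 0.054 in Lat-M1 against PA (limma, a change of -0.36, adjusted p = 0.00157; scaled -0.53, adjusted p = 0.000158). It was higher in Lat-M2 than in Lat-M1 by 0.56 ± 0.059 (adjusted p = 0.000401; scaled 0.58, adjusted p = 0.000186). Its rise in Lat-M2 against PA, 0.20 ± 0.054, was at the edge of the threshold (adjusted p = 0.0461) and was lost when scaled (0.056, adjusted p = 0.435). Leaving out any 1 library other than Lat-M2-2 also ended that call (adjusted p from 0.0878 to 0.153).

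SHMT2 read 91.6, 92.4 and 90.9 TPM in PA, 132 and 130 TPM in Lat-M1, and 122 and 112 TPM in Lat-M2. All 4 Lat-M libraries were above all 3 PA libraries, as they were, or below them, for 28.5% of all tested genes. SHMT2 rose by 0.51 ± 0.055 in Lat-M1 (limma, adjusted p = 0.000329; scaled 0.34, adjusted p = 0.00117) and by 0.35 ± 0.055 in Lat-M2 (adjusted p = 0.0115; scaled 0.19, adjusted p = 0.0338), both against the same PA libraries. The pairs differed from each other by -0.17 ± 0.060, which missed the threshold (adjusted p = 0.0684; 95% interval from -0.31 to -0.03 before adjustment), and passed it without Lat-M2-1 (-0.23, adjusted p = 0.0143). SHMT2 was the 1 enzyme called when the 4 Lat-M libraries were taken as a group against PA, a comparison that called 2.90% of all genes, 2.51% as higher and 0.389% as lower. Its rise there was 0.43 ± 0.075 (adjusted p = 0.0413). That call was lost when scaled (which called 1.25% of genes; SHMT2 0.27, adjusted p = 0.111) and in 6 of the 7 fits that leave out 1 library, all but the one without Lat-M2-2 (adjusted p from 0.0786 to 0.195).

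The SHMT2/SHMT1 ratio was 3.89, 3.89 and 3.76 in PA, 7.14 and 7.13 in Lat-M1, and 4.33 and 4.14 in Lat-M2. The 2 Lat-M1 libraries were nearly identical and stood well above the others, and both Lat-M2 libraries were also above PA. These ratios follow from the tested genes and were not tested on their own.

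Among the folate enzymes, the mitochondrial MTHFD1L and MTHFD2 rose in Lat-M1 against PA, and the cytosolic MTHFD1 did not pass the threshold there as deposited. MTHFD1, which carries all 3 cytosolic activities in a single protein, read 66.8, 61.1 and 64.0 TPM in PA, 57.9 and 61.7 TPM in Lat-M1, and 75.2 and 71.0 TPM in Lat-M2. Lat-M1 overlapped PA, and Lat-M2 lay above both. Lat-M1 and PA differed by -0.097 ± 0.063 (limma, adjusted p = 0.256), a fall that passed the threshold when scaled (-0.27, adjusted p = 0.00391). MTHFD1 was higher in Lat-M2 than in Lat-M1 by 0.29 ± 0.069 (adjusted p = 0.0161; scaled 0.31, adjusted p = 0.00357), and that call ended without Lat-M1-1 or Lat-M2-1 (adjusted p = 0.105 and 0.0523). Lat-M2 and PA differed by 0.19 ± 0.063 (adjusted p = 0.0847; scaled 0.039, adjusted p = 0.626).

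MTHFD1L, which releases formate from mitochondria, had the largest rise among the 8 tested enzymes. It read 38.4, 37.3 and 39.4 TPM in PA, 65.4 and 68.9 TPM in Lat-M1, and 45.4 and 38.9 TPM in Lat-M2. Lat-M1 stood apart, and 1 of the Lat-M2 libraries fell within the PA range. MTHFD1L rose by 0.79 ± 0.075 in Lat-M1 against PA, a 1.73-fold change (limma, adjusted p = 0.000179; scaled 0.62, adjusted p = 5.31e-05). It was lower in Lat-M2 than in Lat-M1 by a difference of -0.66 ± 0.082 (adjusted p = 0.000876; scaled -0.64, adjusted p = 8.66e-05). Against PA, Lat-M2 gave 0.13 ± 0.075 (adjusted p = 0.269; 95% interval from -0.05 to 0.31 before adjustment), and -0.020 when scaled, so that its sign depended on the scaling. Without Lat-M2-2 that difference was 0.24 and passed the threshold (adjusted p = 0.0435). Within libraries, the MTHFD1L/MTHFD1 ratio averaged 0.600 ± 0.0224 (SD, n = 3) in PA, 1.12 ± 0.00954 (n = 2) in Lat-M1 and 0.576 ± 0.0389 (n = 2) in Lat-M2.

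MTHFD2, the mitochondrial dehydrogenase and cyclohydrolase of proliferating cells, read 60.4, 52.5 and 58.6 TPM in PA, 73.1 and 78.1 TPM in Lat-M1, and 76.1 and 65.0 TPM in Lat-M2. All Lat-M libraries were above PA, and the 2 Lat-M pairs overlapped. MTHFD2 rose by 0.40 ± 0.090 in Lat-M1 (limma, adjusted p = 0.00972; scaled 0.22, adjusted p = 0.0305), a call that ended without Lat-M1-2 (0.35, adjusted p = 0.0771) and with structural RNAs left out (0.20, adjusted p = 0.0677). In Lat-M2 the difference from PA was 0.30 ± 0.090 (adjusted p = 0.0673; scaled 0.15, adjusted p = 0.186), and it passed the threshold without Lat-M2-2 (0.41, adjusted p = 0.0349). The 2 Lat-M pairs differed by -0.10 ± 0.099 (adjusted p = 0.464). The MTHFD2/MTHFD1 ratio was 0.904, 0.860 and 0.915 in PA, 1.26 and 1.27 in Lat-M1, and 1.01 and 0.915 in Lat-M2.

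MTHFD2L, the related mitochondrial enzyme that adult tissues express, was about an order of magnitude lower than PSPH or SHMT2. It read 8.24, 7.26 and 8.17 TPM in PA, 8.33 and 8.72 TPM in Lat-M1, and 10.7 and 10.0 TPM in Lat-M2. Lat-M2 was the highest, and Lat-M1 lay just above PA. Its rise in Lat-M2 against PA was 0.36 ± 0.081 (limma, adjusted p = 0.0304). That call was lost when scaled (0.22, adjusted p = 0.0639) and without any 1 library other than Lat-M2-2 (adjusted p from 0.0528 to 0.156). Lat-M1 and PA differed by 0.10 ± 0.081 (adjusted p = 0.347), with the opposite sign when scaled (-0.057, adjusted p = 0.498). Lat-M2 exceeded Lat-M1 by 0.26 ± 0.089, which missed the threshold (adjusted p = 0.0594) and passed it when scaled (0.28, adjusted p = 0.0181).

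ALDH1L2, the mitochondrial 10-formyltetrahydrofolate dehydrogenase, was under 1 TPM throughout and was tested only in the alternative fit with no filter. It read 0.0604, 0.0717 and 0.0837 TPM in PA, 0.332 and 0.242 TPM in Lat-M1, and 0.127 and 0.239 TPM in Lat-M2. All Lat-M libraries were above PA at these low levels. Its cytosolic relative ALDH1L1 was at most 0.0206 TPM in any library, so neither formyltetrahydrofolate dehydrogenase was above 1 TPM.

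Counted over the 8 tested enzymes, 5 passed the threshold in Lat-M1 against PA: SHMT2, MTHFD1L and MTHFD2 were higher, and PSPH and SHMT1 lower. In that comparison 44.8% of all tested genes were called, 33.2% as higher and 11.6% as lower, so a count of 5 of 8 is not far above the background. When scaled, 3 enzymes were higher and 3 lower, with 47.0% of all genes called, 24.0% as higher and 23.0% as lower. In Lat-M2 against PA, 4 enzymes were higher (PSAT1, SHMT1, SHMT2 and MTHFD2L) and 0 lower, beside 14.9% of genes called, 12.7% as higher and 2.24% as lower. When scaled this became 2 higher (PSAT1 and SHMT2) and 1 lower (PSPH), beside 15.9%, 7.47% as higher and 8.41% as lower. Both comparisons use the same PA libraries. Between the Lat-M pairs, 3 enzymes were higher in Lat-M2 (PSPH, SHMT1 and MTHFD1) and 1 was higher in Lat-M1 (MTHFD1L), beside 36.0% of genes called, 16.0% as higher and 20.1% as lower in Lat-M2. When scaled, 5 were higher and 1 lower, beside 44.2%. The median difference of the 8 enzymes was 0.13 in Lat-M1 and 0.25 in Lat-M2 against PA, beside 0.16 and 0.14 for all genes. When scaled, these medians were -0.037 and 0.10, beside 0.0042 and -0.00054 for all genes, so the sign in Lat-M1 depended on the scaling. Calls for PSPH, SHMT1, SHMT2 and MTHFD1L in Lat-M1 against PA, and for PSPH, SHMT1 and MTHFD1L between the Lat-M pairs, held in all 14 alternative fits. Summed over the 10 enzymes as deposited, the level was 678 ± 16.6 TPM (SD, n = 3) in PA, 760 ± 28.2 TPM (n = 2) in Lat-M1 and 796 ± 60.9 TPM (n = 2) in Lat-M2. Unlike the counts, this sum includes PHGDH, which averaged 30.9 TPM in Lat-M1 and 0.0901 TPM in PA. The scaling factors were at most 0.965 in PA and at least 1.0035 in Lat-M, so scaling lowers the Lat-M sums relative to PA. The sum was not tested, and no rise is read from it.

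**Figure D2:**
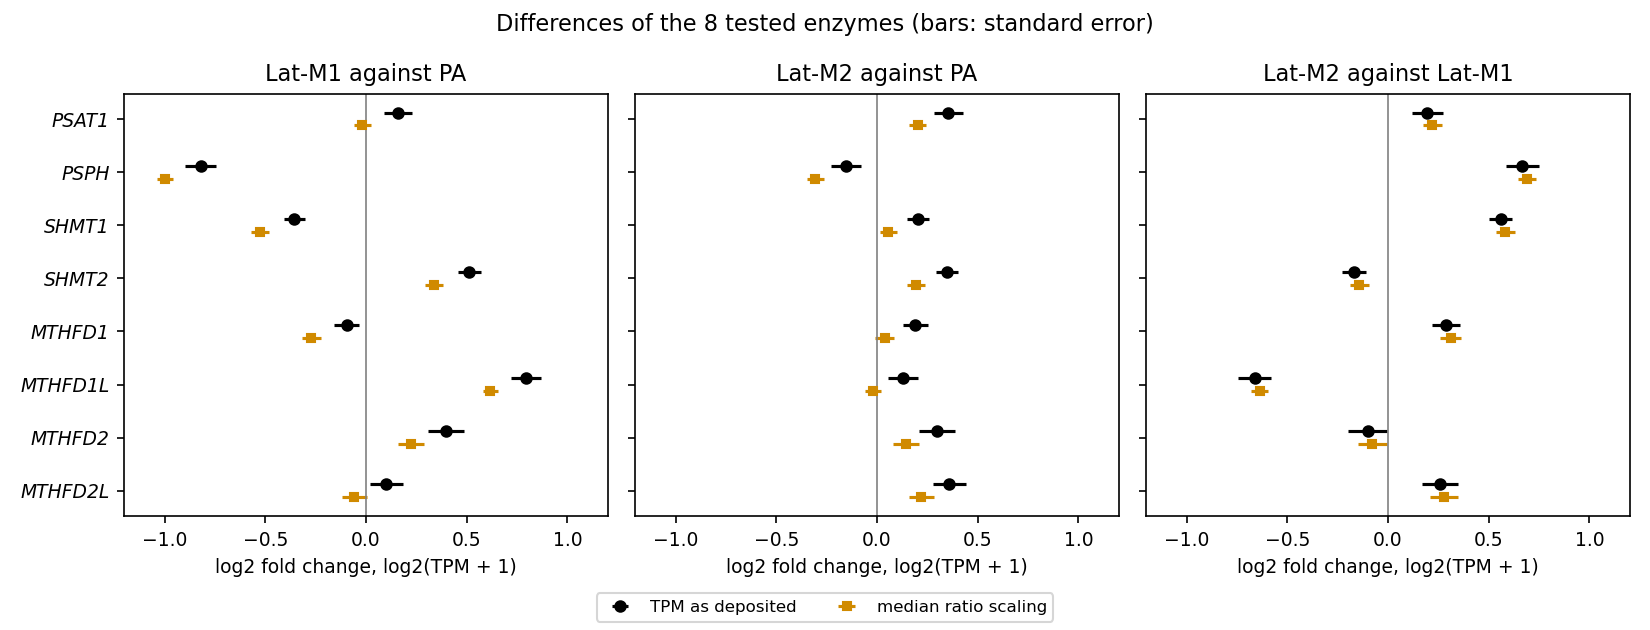
Log2 fold change on the log2(TPM + 1) scale (horizontal axes) of the 8 tested enzymes in Lat-M1 against PA, Lat-M2 against PA and Lat-M2 against Lat-M1, with standard errors as bars. Black circles are TPM as deposited and orange squares are scaled by the median ratio. PSPH lies at -0.82 and MTHFD1L at 0.79 in the first panel, and scaling moves every enzyme of the first and second panels to lower values.

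**Figure D3:**
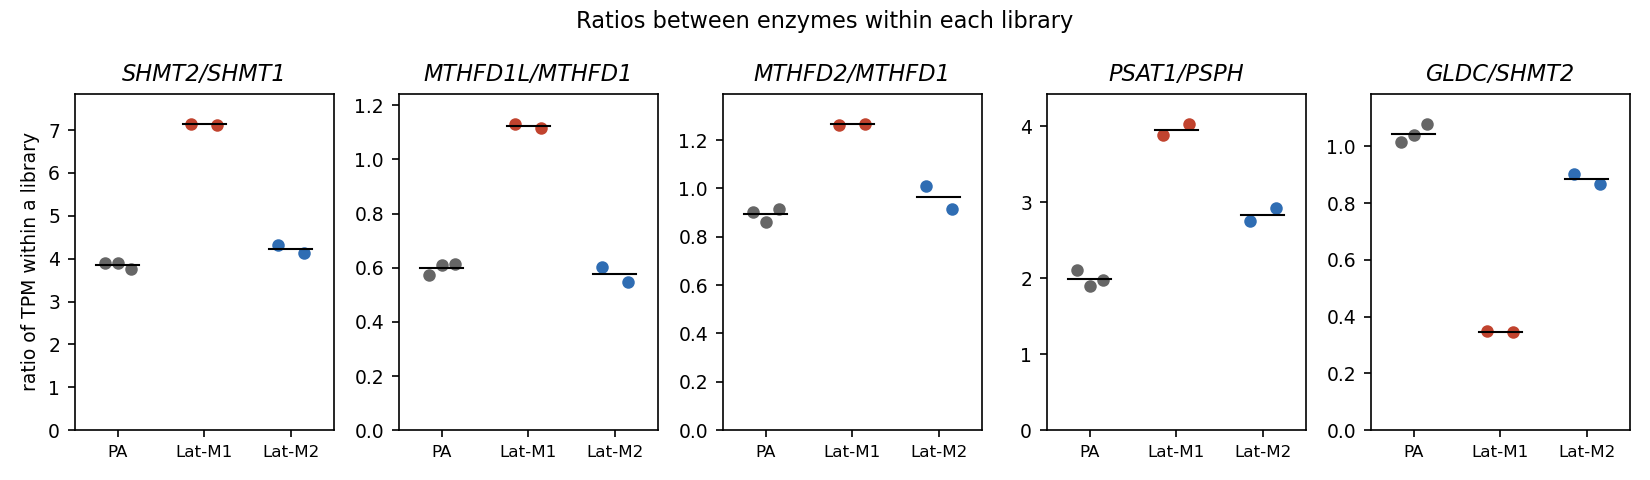
Ratios of TPM between enzymes within each library (vertical axes, linear from 0) in the 3 PA, 2 Lat-M1 and 2 Lat-M2 libraries, with points for libraries and lines for group means. SHMT2/SHMT1, MTHFD1L/MTHFD1, MTHFD2/MTHFD1 and PSAT1/PSPH are highest in Lat-M1, and GLDC/SHMT2 is lowest there.

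Several properties of the whole libraries moved with the groups. Structural RNAs (RN7SL1, RN7SL2, RN7SK and RMRP) took 29.5% to 31.8% of TPM in PA, 18.6% to 21.9% in Lat-M1 and 22.9% to 27.7% in Lat-M2. The calls of PSPH, SHMT1, SHMT2 and MTHFD1L in Lat-M1 held without them. In Lat-M2 the first library read higher than the second for 8 of the 10 enzymes as deposited, PHGDH and ALDH1L2 being the exceptions. The same count was not made over all genes. The scaling factors of these libraries also differed, 1.09 for Lat-M2-1 and 1.00 for Lat-M2-2. When scaled, SHMT1, MTHFD1 and MTHFD2L read higher in Lat-M2-2 too. The renal line markers PAX8 (65.6 to 87.9 TPM), KRT8, KRT18 and VIM were present in every library, whereas CA9 was at most 0.156 TPM and LRP2 and NDUFA4L2 were near 0. Of 6 fibroblast markers, all listed, the sum was 1.41 to 1.74 TPM in PA, 20.0 to 21.7 TPM in Lat-M1 and 3.10 to 4.10 TPM in Lat-M2. Most of it was COL1A1, while COL1A2, DCN, LUM and PDGFRA were at most 0.0364 TPM in any library. The remaining marker, PDGFRB, averaged 0.387 TPM in PA, 0.843 TPM in Lat-M1 and 0.272 TPM in Lat-M2, so it was also highest in Lat-M1. The sum of the 4 listed leukocyte markers was 45.6 to 48.3, 14.3 to 15.5 and 39.7 to 42.1 TPM in the same order, and without CD68 at most 0.261 TPM. Endothelial and erythroid sums were at most 0.0853 and 0.313 TPM, and neural markers other than MBP at most 0.059 TPM. The part of these markers in the differences between groups was not tested. In bulk RNA, a change in the share of cells and a change in the RNA per cell cannot be told apart.

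Genes next to the pathway were read from lists of 109 symbols, of which 101 were listed. The symbols include old and new names of the same gene, such as AARS and AARS1, so the lists hold fewer genes than symbols. Their counts stand beside those of all tested genes: 33.2% higher and 11.6% lower in Lat-M1 against PA (scaled, 24.0% and 23.0%), and 12.7% higher and 2.24% lower in Lat-M2 (scaled, 7.47% and 8.41%). In the supply of serine and glycine, 6 of 9 tested genes were higher and 1 lower in Lat-M1 against PA (scaled, 4 and 1), with a median of 0.42 beside 0.16 for all genes. In Lat-M2, 3 were higher and 0 lower (scaled, 2 and 0), with a median of 0.29 beside 0.14. The serine carrier SLC1A4 averaged 1.73 ± 0.0812 TPM (SD, n = 3) in PA, 4.13 ± 0.237 TPM (n = 2) in Lat-M1 and 2.34 ± 0.242 TPM (n = 2) in Lat-M2, and rose in Lat-M1 by 0.91 (limma, adjusted p = 0.000803). SLC1A5, a neutral amino acid exchanger, rose there by 0.62 (adjusted p = 0.000206). SFXN1, the mitochondrial serine carrier, rose by 0.42 in Lat-M1 (adjusted p = 0.00236; scaled 0.25) and by 0.31 in Lat-M2 (adjusted p = 0.0305), a call lost when scaled (0.16, adjusted p = 0.0617). The amino acid transporter SLC38A1 rose by 0.48 in Lat-M1 (adjusted p = 0.00103; scaled 0.30) and by 0.45 in Lat-M2 (adjusted p = 0.00873; scaled 0.30). SLC38A2, another, rose by 0.41 in Lat-M2 (adjusted p = 0.0103; scaled 0.26), and by 0.22 in Lat-M1 (adjusted p = 0.0256), a call lost when scaled (0.042, adjusted p = 0.426).

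The glycine cleavage system, which breaks down glycine to a further one-carbon unit in mitochondria, had 1 of 3 tested genes lower in Lat-M1 and 0 higher (scaled, 2 lower), beside 11.6% of all genes lower (scaled, 23.0%), and 0 of 3 passed in Lat-M2. That gene was GLDC, its decarboxylase, with 93.1, 96.0 and 98.0 TPM in PA, 46.0 and 45.0 TPM in Lat-M1, and 110 and 97.1 TPM in Lat-M2. Only Lat-M1 was low, and Lat-M2 overlapped PA. GLDC fell by 1.06 ± 0.066 in Lat-M1 against PA (limma, a change of -1.06, adjusted p = 2.43e-05), and Lat-M2 exceeded Lat-M1 by 1.16 ± 0.072 (adjusted p = 3.25e-05). Against PA, Lat-M2 differed by 0.11 (adjusted p = 0.293; scaled -0.044). Set beside SHMT2, which makes mitochondrial glycine, the GLDC/SHMT2 ratio averaged 1.04 ± 0.0313 (SD, n = 3) in PA, 0.347 ± 0.00217 (n = 2) in Lat-M1 and 0.885 ± 0.0232 (n = 2) in Lat-M2.

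In folate uptake and the folate cycle, 7 of 12 tested genes were higher and 0 lower in Lat-M1, beside 33.2% and 11.6% of all genes (scaled, 4 and 1, beside 24.0% and 23.0%), and 1 was higher in Lat-M2, beside 12.7% (scaled, 1). Their medians were 0.29 and 0.11, beside 0.16 and 0.14 for all genes. MTHFS, which returns 5-formyltetrahydrofolate to the active pool, read 20.8, 22.6 and 24.0 TPM in PA, 46.5 and 50.5 TPM in Lat-M1, and 24.1 and 23.6 TPM in Lat-M2, and rose in Lat-M1 by 1.08 ± 0.074 (limma, adjusted p = 3.82e-05). Lat-M1 stood apart from both other groups, and Lat-M2 against PA gave 0.085 (adjusted p = 0.46; scaled -0.063). GGH, which trims polyglutamate tails from folates, rose in Lat-M1 by 0.67 (adjusted p = 0.000111), and SLC25A32, the mitochondrial folate carrier, by 0.43 (adjusted p = 0.00495; scaled 0.25). TYMS, which makes thymidylate, rose by 0.30 (adjusted p = 0.0198), a call lost when scaled (0.12, adjusted p = 0.0581). SLC46A1, the proton-coupled folate transporter, was the gene that rose in Lat-M2, from 3.23 ± 0.0483 TPM (SD, n = 3) in PA to 4.90 ± 0.315 TPM (n = 2), by 0.48 (adjusted p = 0.0204).

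The methionine cycle and transsulfuration, which take up one-carbon units and serine respectively, had 6 of 8 tested genes higher and 0 lower in Lat-M1, beside 33.2% and 11.6% of all genes (scaled, 5 and 1). In Lat-M2, 2 were higher and 0 lower, beside 12.7% and 2.24% (scaled, 2 and 2), and the medians were 0.35 in Lat-M1 and 0.14 in Lat-M2. CBS, which condenses serine with homocysteine, averaged 19.8 ± 2.29 TPM (SD, n = 3) in PA and 33.8 ± 2.41 TPM (n = 2) in Lat-M1, a rise of 0.75 (limma, adjusted p = 0.00131). MAT2B, a regulatory subunit in the making of S-adenosylmethionine, rose in Lat-M1 by 0.61 (adjusted p = 0.00031) and in Lat-M2 by 0.39 (adjusted p = 0.0125; scaled 0.24). MTR, methionine synthase, rose in Lat-M1 by 0.39 (adjusted p = 0.00411; scaled 0.21) and in Lat-M2 by 0.31 (adjusted p = 0.032; scaled 0.16). In choline, betaine and sarcosine oxidation, an alternative source of one-carbon units, 1 of 3 tested genes was higher and 1 lower in Lat-M1, beside 33.2% and 11.6% of all genes (scaled, 1 and 2), and 0 passed in Lat-M2. CHDH, choline dehydrogenase, fell in Lat-M1 by 0.79 (a change of -0.79, adjusted p = 0.000169), and ALDH7A1, which oxidises betaine aldehyde, rose by 0.65 (adjusted p = 0.000109).

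All 6 genes of de novo purine synthesis, which consumes 10-formyltetrahydrofolate, were higher in Lat-M1 as deposited, with a median of 0.32 beside 0.16 for all genes, of which 33.2% were higher (scaled, 3 of 6 higher and 0 lower). ATIC and ADSL rose there by 0.51 (limma, adjusted p = 0.00297; scaled 0.33) and 0.46 (adjusted p = 0.00157; scaled 0.29). In Lat-M2 the 1 gene called higher was PFAS, by 0.32 (adjusted p = 0.0478), which was lost when scaled (0.17, adjusted p = 0.134), where 1 gene, ADSL, was lower (-0.15, adjusted p = 0.0296). PFAS also rose in Lat-M1, by 0.40 (adjusted p = 0.00725; scaled 0.23). S phase genes, which mark DNA replication, were higher in 9 of 14 and lower in 1 in Lat-M1, beside 33.2% and 11.6% of all genes (scaled, 7 and 4, beside 24.0% and 23.0%). They were higher in 1 and lower in 0 in Lat-M2 (scaled, 0 and 3), with medians of 0.29 in Lat-M1 and 0.18 in Lat-M2. TK1, thymidine kinase, rose in Lat-M1 by 0.69 (adjusted p = 0.000471), and MCM3, a subunit of the replicative helicase, by 0.56 (adjusted p = 0.000697). In Lat-M2 the gene was MCM2, another such subunit, by 0.33 (adjusted p = 0.0459), which was lost when scaled (0.18, adjusted p = 0.0897), and it rose by 0.40 in Lat-M1 (adjusted p = 0.00771; scaled 0.23). MKI67, a marker of cycling cells, averaged 91.6 TPM in PA, 112 TPM in Lat-M1 and 104 TPM in Lat-M2, with differences of 0.28 (adjusted p = 0.0173; scaled 0.10) and 0.19 (adjusted p = 0.127; scaled 0.034) from PA.

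ATF4 is a transcription factor of the amino acid response that is known to drive PHGDH, PSAT1, SHMT2 and MTHFD2. It read 231, 242 and 240 TPM in PA, 344 and 365 TPM in Lat-M1, and 275 and 248 TPM in Lat-M2. Lat-M1 was the highest, and both Lat-M2 libraries lay above PA. ATF4 mRNA rose by 0.57 ± 0.064 in Lat-M1 (limma, adjusted p = 0.00039), and Lat-M2 against PA gave 0.13 ± 0.064 (adjusted p = 0.196; scaled -0.019, so the sign depended on the scaling). Of 25 tested genes of the ATF4 and amino acid response list, 18 were higher and 4 lower in Lat-M1 (scaled, 16 and 4), beside 33.2% and 11.6% of all genes, with a median of 0.40 beside 0.16. In Lat-M2, 10 were higher and 1 lower (scaled, 6 and 3), beside 12.7% and 2.24% of all genes, with a median of 0.23 beside 0.14. CHAC1, which degrades glutathione, averaged 5.71 ± 0.818 TPM (SD, n = 3) in PA, 14.5 ± 1.69 TPM (n = 2) in Lat-M1 and 8.51 ± 0.0224 TPM (n = 2) in Lat-M2. It rose by 1.21 in Lat-M1 (adjusted p = 0.000223) and by 0.51 in Lat-M2 (adjusted p = 0.0335, and 0.0571 when scaled).

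NUPR1, a stress-induced chromatin protein, was highest in Lat-M2, at 9.34 ± 0.754 TPM (SD, n = 2), against 4.95 ± 0.0760 TPM (n = 2) in Lat-M1 and 2.06 ± 0.328 TPM (n = 3) in PA, with rises of 1.76 (limma, adjusted p = 0.000311) and 0.96 (adjusted p = 0.000639). STC2, a secreted glycoprotein, fell in Lat-M1 by 1.78 (a change of -1.78, adjusted p = 0.000129), from 3.27 ± 0.251 TPM to 0.244 ± 0.0622 TPM. ASNS, asparagine synthetase, rose by 0.35 in Lat-M1 (adjusted p = 0.0136; scaled 0.17) and 0.51 in Lat-M2 (adjusted p = 0.0132). TRIB3, a pseudokinase, rose by 0.42 in Lat-M1 (adjusted p = 0.016; scaled 0.24), and in Lat-M2 gave 0.24 (adjusted p = 0.169; scaled 0.085). SLC7A5, a transporter of large neutral amino acids, rose by 0.56 in Lat-M1 (adjusted p = 0.00185) and by 0.54 in Lat-M2 (adjusted p = 0.0121). Among 10 tested regulators of the pathway other than ATF4, 7 were higher and 1 lower in Lat-M1 (scaled, 7 and 1), beside 33.2% and 11.6% of all genes, and 2 were higher and 0 lower in Lat-M2 (scaled, 2 and 1), beside 12.7% and 2.24%. MYC rose by 0.50 in Lat-M1 (adjusted p = 0.00067; scaled 0.32) and by 0.32 in Lat-M2 (adjusted p = 0.0195; scaled 0.17). EPAS1, which encodes HIF-2 alpha, averaged 0.506 ± 0.0872 TPM in PA, 2.99 ± 0.0189 TPM in Lat-M1 and 1.05 ± 0.0633 TPM in Lat-M2. It was 1.41 higher in Lat-M1 than in PA. Since it passed the filter of 1 TPM only through its level in Lat-M1, no p-value is given for it. EPAS1 is among the 10 regulators tested and the 7 counted as higher there, and that count should be read without it. HIF1A rose in Lat-M1 by 0.64 (limma, adjusted p = 0.0175).

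**Figure D4:**
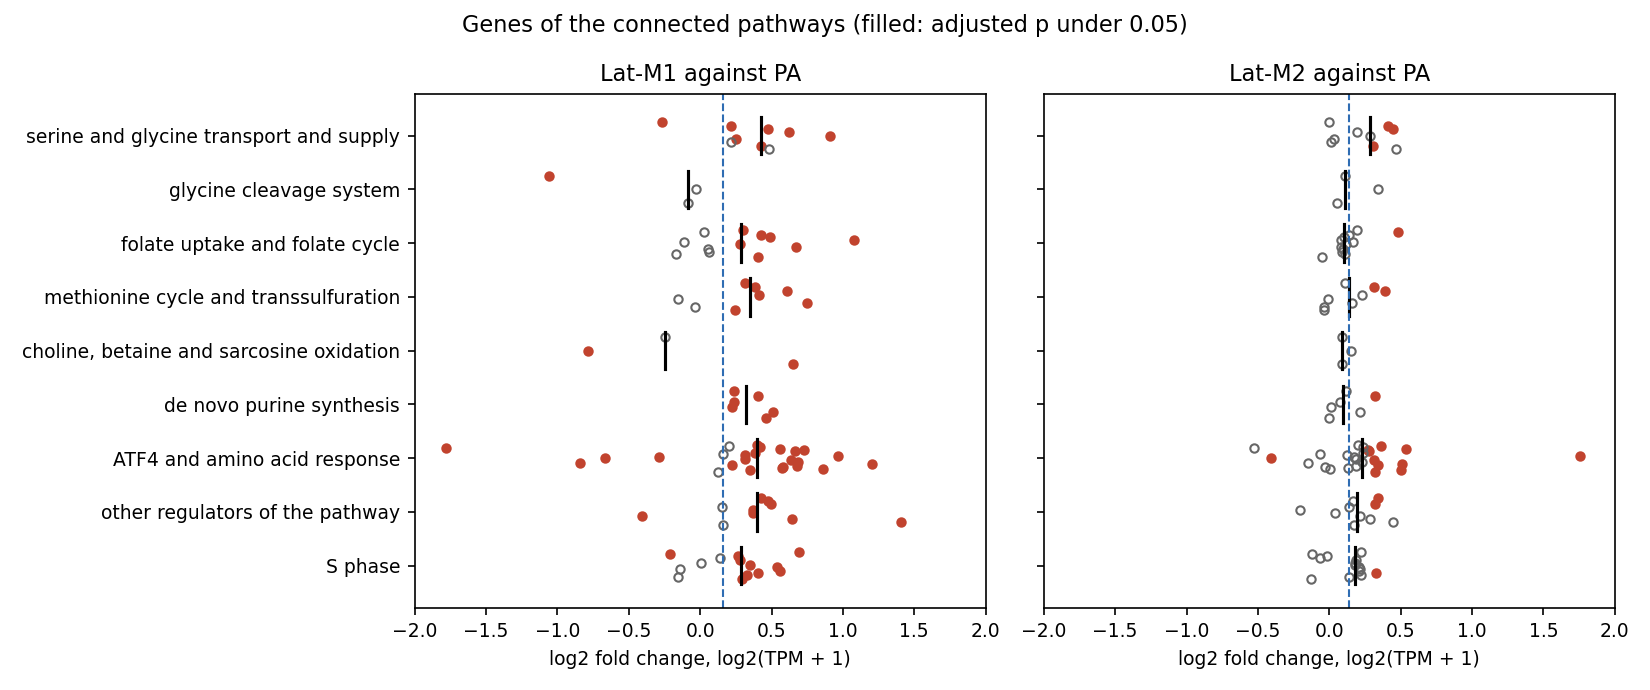
Log2 fold change on the log2(TPM + 1) scale (horizontal axes) of each tested gene in 9 connected gene lists (rows), in Lat-M1 and Lat-M2 against the same PA libraries. Filled points have an adjusted p under 0.05, black lines are list medians and the dashed line is the median of all tested genes. The row of other regulators includes EPAS1, which passed the filter only through its level in Lat-M1. More points are filled in Lat-M1 than in Lat-M2 (as for all genes, 44.8% against 14.9%), and purine synthesis has all 6 points filled in Lat-M1.

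Genes with a pattern like that of PHGDH were sought by Pearson's r with it over the 7 libraries on the log2(TPM + 1) scale, among 1927 tested genes whose group means spanned at least 1 log2 unit. The highest were NDN (r = 0.99977), RBMS3 (0.99972), CXCL1 (0.9996), LGALS3 (0.9995) and GYPC (0.99948). The libraries form 2 clusters here, Lat-M1 and the rest, so each r rests on the 2 Lat-M1 libraries and describes an on and off pattern. In Lat-M1 their mean levels were 48.7 TPM for NDN, 21.4 TPM for RBMS3, 5.08 TPM for CXCL1, 29.6 TPM for LGALS3 and 19.4 TPM for GYPC. In PA and Lat-M2 each had a mean under 0.2 TPM, and RBMS3, CXCL1, LGALS3 and GYPC were listed at 0 in both Lat-M2 libraries.

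Listed protein-coding genes near PHGDH on its chromosome were read for comparison, a choice made after its values were seen. ZNF697 averaged 21.8 ± 1.23 TPM (SD, n = 3) in PA, 12.9 ± 0.521 TPM (n = 2) in Lat-M1 and 15.1 ± 0.651 TPM (n = 2) in Lat-M2. NOTCH2, a receptor gene, averaged 40.3 ± 1.70 TPM in PA, 96.0 ± 3.79 TPM in Lat-M1 and 51.9 ± 3.91 TPM in Lat-M2. HAO2 was near 0 throughout, and WARS2 and FAM72B averaged 21.6 and 2.64 TPM in Lat-M1 against 23.7 and 4.13 TPM in PA. Of these 5 genes, NOTCH2 was also highest in Lat-M1, and none was near 0 in PA and Lat-M2 while high in Lat-M1.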

How the data were processed

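RNA sequencing of 7 libraries of 769-P cells was read from the deposited TPM values, 1 table per library, in which each library sums to 1e+06. TopHat2 2.2.4 and hg19 are named in the submitters' processing notes. The quantifier, annotation and filters are not given in the sources used here, nor which library was made with which of the 2 kits in the labels. For 161 symbols under more than 1 identifier the one with the highest mean was used, and no enzyme of the set was affected.

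On the log2(TPM + 1) scale, the 16724 identifiers that averaged 1 TPM or more were fitted with limma 3.58.1 (trend and robust options, statmod 1.5.0, R 4.3.3), with Benjamini-Hochberg adjustment at 0.05. Lat-M1, Lat-M2 and PA shared 1 fit of 3 groups, and a separate fit of 2 groups set Lat-M against PA. The steps were tested on simulated data. Errors beside TPM are SD, and beside log2 fold changes standard errors. Scaled values divide each library by a factor, its median ratio to the others (0.927 to 1.10). Alternatives were a pseudocount of 0.1 TPM, no filter, a minimum of 5 TPM, both scalings, a replicate block, limma without the trend and robust options, and each library left out.

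The enzymes, the gene lists (serine and glycine supply, glycine cleavage, folate cycle, methionine cycle and transsulfuration, choline oxidation, purine synthesis, ATF4 response, other regulators, S phase, and cell type markers) and the tests were chosen with earlier results of these data known. Named were all 10 enzymes, the 2 largest changes past the threshold in each list for each Lat-M pair against PA, 11 genes fixed by name, and the 5 genes most like PHGDH, of which some are not reported here. Gene order came from GENCODE v29, another build than hg19, so no positions were taken from it. Promoter windows are RefSeq's on GRCh38.p14.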

Additional observations from a re-analysis of the deposited data

Results flagged for a closer look

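For 4 enzymes the difference from PA was not the same in the Lat-M pairs, by limma's contrast of Lat-M2 with Lat-M1. That contrast was 0.67 for PSPH, 0.56 for SHMT1, 0.29 for MTHFD1 and -0.66 for MTHFD1L, as log2 fold changes. All kept their sign when scaled, and for MTHFD1 the call ended in the fits without Lat-M1-1 or Lat-M2-1 (adjusted p = 0.105 and 0.0523). PHGDH differed between the pairs by -4.98, with both Lat-M1 libraries above and both Lat-M2 libraries below the PA mean. The difference of PHGDH was not tested, since it chose the set.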

How the results depend on the processing

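Of 456 results for single enzymes under the alternatives, 383 kept direction and side of the threshold, 43 lost it, 19 gained it and 11 changed sign. Of the 43, 27 were in Lat-M2 against PA. Signs changed under median ratio scaling for PSAT1 (-0.0176) and MTHFD2L (-0.0574) in Lat-M1 against PA, MTHFD1L (-0.0199) in Lat-M2 against PA and MTHFD1 (-0.1166) in Lat-M against PA. With structural RNAs left out they changed for PSAT1 (-0.0386), MTHFD2L (-0.0783) and, in Lat-M against PA, MTHFD1 (-0.1032). Leaving out a library changed the sign in Lat-M against PA for SHMT1 (0.0144 without Lat-M1-1 and 0.0199 without Lat-M1-2; lowest -0.1791, without Lat-M2-1) and MTHFD1 (-0.0145 without Lat-M2-1; highest 0.1098, without Lat-M1-1), and for MTHFD2 in Lat-M2 against Lat-M1 (0.0097 without Lat-M2-2; lowest -0.2131, without Lat-M2-1). A lone library left in a pair was assumed to vary like the others. Leaving out 1 library in turn, genes called ranged from 4721 (without Lat-M1-2) to 7925 in Lat-M1 against PA (7499 in full), 506 (without Lat-M2-1) to 3191 in Lat-M2 against PA (2494), 3838 (without Lat-M1-2) to 5830 in Lat-M2 against Lat-M1 (6022) and 18 (without PA 2) to 1869 (without Lat-M2-2) in Lat-M against PA (485). Enzymes called ranged from 4 to 5, 1 to 6, 3 to 5 and 0 to 2 in the same order. In Lat-M2 against PA, no filter gave 1529 genes and 2 enzymes. With no filter, Lat-M1 against PA had 7648 genes and 6 of 9 enzymes called, ALDH1L2 being the enzyme added. In Lat-M against PA, no filter gave 107 genes, median ratio scaling 209 and structural RNAs left out 175, each with 0 enzymes (limma), as did the fit without the trend and robust options, while the fit of 3 groups gave 6106 genes and 6 enzymes. The fit of 2 groups takes the 4 Lat-M libraries as 1 group, so the difference between the Lat-M pairs enters its spread. In the fit of 3 groups it does not. What lay behind the other shifts was not tested. The labels do not say whether library numbers pair the libraries. Deviations from the group means were little correlated between libraries of the same number (-0.0820 to 0.0312). This cannot settle the question, since the 2 libraries of a Lat-M pair deviate by equal and opposite amounts. With the number as a replicate block, Lat-M2 against PA had 943 genes and 0 enzymes called, ending the calls of PSAT1, SHMT1, SHMT2 and MTHFD2L. Lat-M against PA had 0 genes and 0 enzymes (limma; 2060 genes at an unadjusted p under 0.05), and MTHFD1 lost its call between the Lat-M pairs. TPM gives no depth, which limits the reading of ALDH1L2 and of PHGDH outside Lat-M1.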
